A study of Drosophila melanogaster with 48 samples.

Results

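The S3-only Su(Hw) peaks are the intervals of the S3 cell Su(Hw) peak list that do not overlap any interval of the S2 cell Su(Hw) list by 1 bp or more. There are 1097 of them among 2598 Su(Hw) peaks listed in S3 cells, a share of 42.2% with an exact binomial interval of 40.3 to 44.2%. The other 1501 peaks of the S3 list overlap a peak of the S2 list and are called shared here. The S2 list holds 2084 peaks, of which 587 overlap no S3 peak and are called S2-only. Membership rests on the Su(Hw) lists of both lines, so the size of the set is a description of those lists.

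Su(Hw) is a zinc finger DNA-binding protein of Drosophila. It was defined by its binding in the gypsy retrotransposon, where it forms an insulator with Mod(mdg4) and CP190 that can block communication between enhancers and promoters. It also binds many sites of the genome that carry no gypsy element. The RNA exosome is a complex that trims and degrades RNA from the 3′ end. Rrp40 is an RNA-binding subunit of its cap, and Rrp6 is an exonuclease joined to it in the nucleus.

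The study mapped Su(Hw), Rrp6 and Rrp40 by ChIP-seq in Drosophila melanogaster S3 and S2 cells, 2 cultured lines labelled as late embryonic. Cells of both lines had been fixed for 10 min in 1% formaldehyde, and no dsRNA is named for the ChIP samples. A guinea pig antibody to Su(Hw) and rabbit antibodies to Rrp6 and Rrp40 were used. Su(Hw) has 1 sample in S3 and 1 in S2 cells, and each Rrp6 or Rrp40 list stands for 2 technical replicates of 1 line. The 34 RNA samples of the series enter here only through the control (GFP dsRNA) means of poly(A) RNA from both lines. The lists give positions on the dm3 build and no height, fold or score, and the read depth behind them is unknown. A site that was bound in both lines but passed the calling threshold in S3 cells alone therefore cannot be told apart from a site bound in S3 cells alone. With 1 sample per line there is no spread between replicates, so no test was run and no p-value is given. Intervals are exact 95% binomial intervals, or the order-statistic interval of a median, and cover counting error over peaks of 1 list.

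Of the 1097 S3-only Su(Hw) peaks, 971 (88.5%, 86.5 to 90.3%) overlapped no Rrp6 or Rrp40 peak of either line, against 1188 shared peaks (79.1%, 77.0 to 81.2%), where 83.1% of all S3 Su(Hw) peaks overlapped none. Most Su(Hw) peaks of either set thus overlapped no exosome peak. The same held for 84.1% of 2056 bp windows tiled along the major arms, a yardstick described further on. In S3 cells, 77 S3-only peaks (7.02%, interval 5.58 to 8.69%) overlapped an Rrp6 peak, against 137 shared peaks (9.13%, 7.72 to 10.7%), where 8.24% of all S3 Su(Hw) peaks did so. For Rrp40 in S3 cells the counts were 76 S3-only peaks (6.93%, 5.50 to 8.59%) and 116 shared peaks (7.73%, 6.43 to 9.20%), with 7.39% of all S3 Su(Hw) peaks. For both subunits the intervals of the sets overlapped. For Rrp6 this held only with the 43 S3-only and 14 shared peaks of 420 bp, a class described further on. Among wider peaks, Rrp6 of S3 cells met 5.31% (4.04 to 6.84%) of the S3-only and 8.54% (7.17 to 10.1%) of the shared peaks, and Rrp40 of S3 cells met 5.41% (4.12 to 6.95%) of the S3-only and 7.40% (6.12 to 8.85%) of the shared peaks.

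In the exosome lists of S2 cells the shared peaks stood higher. There, 76 S3-only peaks (6.93%, 5.50 to 8.59%) lay over an Rrp6 peak, against 225 shared peaks (15.0%, 13.2 to 16.9%), with 11.6% of all S3 Su(Hw) peaks. An Rrp40 peak of S2 cells lay over 96 S3-only peaks (8.75%, 7.15 to 10.6%) and 216 shared peaks (14.4%, 12.7 to 16.3%), with 12% of all S3 Su(Hw) peaks. Both intervals of the S3-only peaks ended below those of the shared peaks. Over any of the 4 exosome lists the counts were 126 S3-only peaks (11.5%, 9.66 to 13.5%) and 313 shared peaks (20.9%, 18.8 to 23.0%), with 16.9% of all S3 Su(Hw) peaks. The difference between the sets was not tested.

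The S2-only Su(Hw) peaks stood far from this. Of the S3-only peaks 11.5% met an exosome peak, against 447 of 587 S2-only peaks (76.1%, 72.5 to 79.5%). Among the shared peaks of the S2 list, 322 of 1497 (21.5%, 19.5 to 23.7%) met one. The exosome lists of S3 cells overlapped the S2-only peaks too, 362 (61.7%) for Rrp6 and 344 (58.6%) for Rrp40, although no Su(Hw) peak was listed there in S3 cells. Of the S2-only peaks 24.0% were of the narrowest width of their list, and among the wider ones 325 of 446 (72.9%) met an exosome peak. The difference was not tested.

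As a yardstick, the major chromosome arms were tiled between their first and last peak of any list with 58401 windows of 2056 bp, the median width of an S3-only peak. Some exosome peak overlapped 11.5% of the S3-only peaks, against 15.9% of these windows. Rrp6 and Rrp40 peaks of S3 cells met 10.0 and 9.56% of the windows, and those of S2 cells met 10.4 and 13.5%. The S3-only peaks were below the windows in each list by this measure. Shared peaks were above the windows for the S2 lists and below them for the S3 lists. For Rrp40 of S2 and Rrp6 of S3 cells the window share lay within the interval of the shared peaks (12.7 to 16.3% and 7.72 to 10.7%). Shared peaks, with a median width of 2214 bp, were also wider than the windows, and the effect of width on these shares was not tested.

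**Figure D1:**
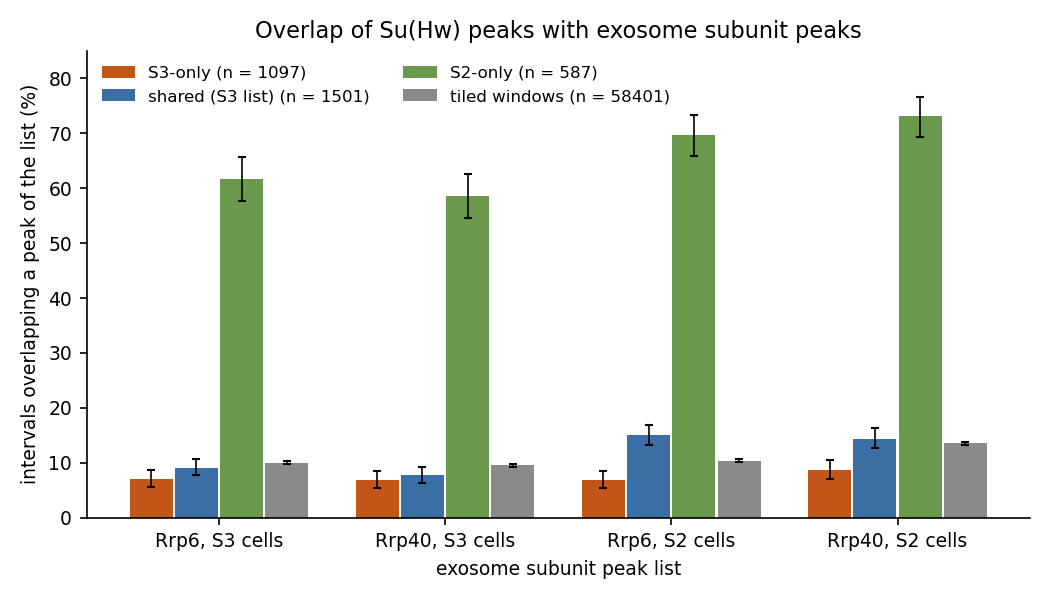
Share of intervals (%) that overlap a peak of each exosome subunit list by 1 bp or more, for S3-only, shared and S2-only Su(Hw) peaks and for tiled windows of 2056 bp; error bars are exact 95% binomial intervals. The S3-only bars lie between 6.93 and 8.75% in all 4 lists, while the S2-only bars lie between 58.6 and 73.1%.

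Of the 126 S3-only peaks with an exosome peak, 79 (62.7%, 53.6 to 71.1%) overlapped exosome peaks of both S3 and S2 cells, 33 overlapped peaks of S2 cells and none of S3 cells, and 14 the reverse. For shared peaks the corresponding counts were 145 (46.3%, 40.7 to 52.0%), 154 and 14. Of the tiled windows with an exosome peak, 67.8% met one of both lines, a share within the interval of the S3-only peaks. An exosome peak listed in S3 and not in S2 cells therefore accompanied 1.28% (0.699 to 2.13%) of the S3-only and 0.933% (0.511 to 1.56%) of the shared peaks. Tiled windows gave 0.909%.

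The exosome counts of the 2 lines were nearer to each other at S3-only than at shared peaks. Rrp6 peaks of S3 cells met 77 and those of S2 cells 76 S3-only peaks, with 54 peaks met in both, a ratio of 1.01. At shared peaks the Rrp6 counts were 137 in S3 and 225 in S2 cells, a ratio of 0.609. The whole Rrp6 lists hold 2746 peaks in S3 and 3282 in S2 cells, a ratio of 0.837. For Rrp40 the ratio was 0.792 at S3-only peaks (76 in S3 and 96 in S2 cells), 0.537 at shared peaks (116 and 216) and 0.755 over the whole lists (2831 and 3750). At S2-only peaks the ratio was 0.885 for Rrp6 (362 in S3 and 409 in S2 cells) and 0.802 for Rrp40 (344 and 429). The shared peaks thus had the lowest ratio for both subunits, and for Rrp40 the S3-only ratio was close to that of the S2-only peaks. These ratios compare 1 list with 1 list, and their difference was not tested.

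In S3 cells, 60 S3-only peaks met both subunits, which is 77.9% of those with Rrp6 and 78.9% of those with Rrp40. The same shares were 68.6 and 81.0% at shared peaks and 78.5 and 82.2% over tiled windows. In S2 cells the number of S3-only peaks with both was again 60, which is 78.9% of those with Rrp6 and 62.5% of those with Rrp40, against 63.1 and 65.7% at shared peaks and 85.8 and 65.9% over windows. Finding the subunits together was thus about as common at S3-only peaks as over windows, with the widest gap for Rrp6 of S2 cells. Peaks of all 4 lists met 44 S3-only peaks (4.01%, 2.93 to 5.35%) and 77 shared peaks (5.13%), with 4.66% of all S3 Su(Hw) peaks. Of the tiled windows 6.21% met all 4 lists, a larger share than of either set. The 44 lie on 2L (10), 2R (14), 3L (9), 3R (9) and X (2).

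By width, the first of these 44 are chr2L:12108979-12112327 with 3349 bp, chr2R:11887746-11890278 with 2533 bp and chrX:19533840-19536102 with 2263 bp. The nearest S2 Su(Hw) peaks lay 14.9, 11.1 and 0.842 kb from them. Next come chr2L:11011081-11013313 with 2233 bp and chr3L:4292666-4294878 with 2213 bp, 20.7 and 51.2 kb from an S2 Su(Hw) peak. chr2L:21682572-21684750 lay 349 kb from the nearest shared Su(Hw) peak. Others of the 10 widest were chr3R:2192862-2194987, chr3R:23461689-23463763, chr3R:11872472-11874521 and chr3L:14624677-14626688, between 2126 and 2012 bp wide. So sites with both subunits in both lines and Su(Hw) in the S3 list alone occurred on each large arm.

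Seen from the exosome lists, S3-only Su(Hw) peaks touched 78 of 2746 Rrp6 peaks (2.84%) and 78 of 2831 Rrp40 peaks (2.76%) of S3 cells. In S2 cells they touched 77 of 3282 Rrp6 peaks (2.35%) and 96 of 3750 Rrp40 peaks (2.56%). Shared Su(Hw) peaks touched 4.99 and 4.13% of the Rrp6 and Rrp40 peaks of S3 cells, and 6.95 and 5.84% of those of S2 cells. These shares are not scaled for the size of the sets. Shared peaks of the S3 list cover 3753917 bp and S3-only peaks 2253017 bp. Where an S3-only peak met Rrp6 of S3 cells, the midpoints were a median 334 bp apart (interval 243 to 651 bp), against 564 bp (391 to 812 bp) at shared peaks. For Rrp40 of S3 cells the medians were 298 bp (209 to 548 bp) at S3-only and 523 bp (367 to 814 bp) at shared peaks. For Rrp6 of S2 cells they were 258 bp (170 to 403 bp) at S3-only and 265 bp (219 to 352 bp) at shared peaks. For Rrp40 of S2 cells they were 445 bp (256 to 791 bp) at S3-only and 420 bp (311 to 543 bp) at shared peaks. The intervals of the sets overlapped in all 4 lists.

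S3-only peaks were narrow for the list. Their median width was 2056 bp (2047 to 2063 bp, quartiles 1983 and 2127 bp), against 2214 bp (2201 to 2233 bp, quartiles 2109 and 2563 bp) for shared peaks of the same list. Of the S3-only peaks 768 (70.0%) measured 1900 to 2200 bp, and 45 (4.10%) exceeded 3000 bp, against 662 (44.1%) and 220 (14.7%) of the shared peaks. S2-only peaks were narrower still, with a median of 1499 bp in a list whose shared peaks had 2287 bp. A wide interval also has more room to meet an S2 peak under the rule, and its part in the width difference was not tested. Within 0.5 kb of an S2 peak lay 20 S3-only peaks (1.82%).

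With the S3 list sorted by width into 5 classes of similar size, the S3-only share was lower in each wider class. It was 74.0% (387 of 523 peaks) at 420 to 2015 bp and 63.5% (334 of 526) at 2016 to 2097 bp. It was 36.2% (185 of 511) at 2098 to 2183 bp, 20.7% (107 of 518) at 2184 to 2464 bp and 16.2% (84 of 520) at 2466 bp and above. S3-only peaks were the majority in the 2 narrowest classes and a minority in the other 3. Among S3 peaks at least as wide as the list's median, 11 of 262 S3-only peaks (4.20%) met an exosome peak, against 205 of 1038 shared peaks (19.7%).

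**Figure D2:**
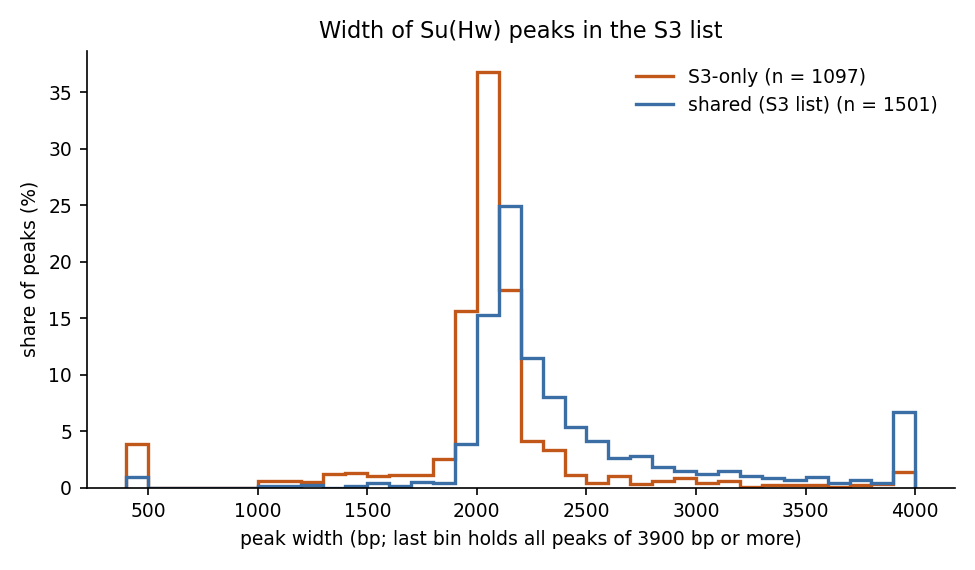
Width of Su(Hw) peaks in the S3 list (bp, bins of 100 bp) as a share of each set (%), for 1097 S3-only and 1501 shared peaks. The S3-only curve peaks just above 2000 bp and the shared curve extends to wider peaks, and both have an isolated group at 420 bp.

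The narrowest peaks formed a class of their own. Exactly 43 S3-only peaks (3.92%) and 14 shared peaks (0.933%) were 420 bp wide, and no peak of the S3 list had a width between that and 1000 bp. Of the 43, 33 met an exosome peak (76.7%, 61.4 to 88.2%), as did 14 of the 14 shared ones. Among the 1054 wider S3-only peaks 93 did (8.82%, 7.18 to 10.7%), against 299 of 1487 wider shared peaks (20.1%, 18.1 to 22.2%). So 33 of the 126 exosome contacts of S3-only peaks came from 43 peaks. The S2 list had a like class at 390 bp, with 141 S2-only peaks, of which 122 (86.5%) met an exosome peak, and 20 shared peaks, of which 10 did. The sources used here do not say what sets these fixed widths.

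The class was met by Rrp6 at 21 and by Rrp40 at 19 of its 43 sites in S3 cells, and at 19 and 24 sites in S2 cells. In coordinate order the first of them are chr2L:4977088-4977507, which overlapped Rrp40 of S3 and Rrp6 of S2 cells, chr2L:7219783-7220202, which overlapped all 4 lists, and chr2L:7496140-7496559, which overlapped Rrp40 in both lines. At the other end, the 3 widest S3-only peaks all lie on 3L. They are chr3L:13678535-13684963 with 6429 bp, chr3L:13642130-13647541 with 5412 bp and chr3L:13556526-13561693 with 5168 bp. None of these 3 met an exosome peak.

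S3-only peaks with and without an exosome peak differed in one measure of spacing beyond their intervals, though this was not tested. The median distance to the nearest other Su(Hw) peak of S3 cells was 16.7 kb (12.4 to 20.0 kb) with an exosome peak, against 8.44 kb (7.40 to 9.45 kb) without one. The distance to the nearest shared peak was 23.8 kb (18.7 to 33.7 kb) with and 23.1 kb (20.9 to 25.7 kb) without an exosome peak. The nearest Su(Hw) peak of S2 cells was closer for those with an exosome peak, 15.0 kb (13.1 to 18.1 kb), against 19.7 kb (17.1 to 21.5 kb) without one, with intervals that overlap. Across all S3-only peaks, the nearest Rrp6 and Rrp40 peaks of S3 cells were a median 32.2 and 33.6 kb away, against 22.2 and 22.5 kb for shared peaks. The nearest Rrp6 and Rrp40 peaks of S2 cells were 28.1 and 27.7 kb from S3-only peaks, against 15.7 and 15.2 kb for shared peaks. S3-only peaks with an exosome peak had a median width of 1785 bp, against 2066 bp without one.

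S3-only peaks were spread along the arms at a spacing like that of shared peaks. The median gap to the nearest other Su(Hw) peak of S3 cells was 8.86 kb (8.02 to 10.1 kb, quartiles 3.41 and 22.2 kb) for S3-only and 10.6 kb (9.48 to 11.3 kb, quartiles 3.70 and 23.4 kb) for shared peaks. From one S3-only peak to the next S3-only peak it was 23.2 kb (20.4 to 25.9 kb). The nearest shared peak of the S3 list was a median 23.2 kb away (21.3 to 25.7 kb), and 40 S3-only peaks (3.65%) lay within 1 kb of one, 180 (16.4%) within 5 kb and 800 (72.9%) within 50 kb. For a shared peak, the nearest other shared peak lay a median 18.1 kb away (17.0 to 19.5 kb).

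Few S3-only peaks were near misses of an S2 peak. The nearest Su(Hw) peak of S2 cells was a median 18.2 kb away (16.8 to 20.4 kb), with 20 S3-only peaks (1.82%) within 0.5 kb and 50 (4.56%) within 1 kb of one. Of those 50, 44 lay nearest to an S2 peak that is itself shared and 6 to an S2-only peak. The nearest S2-only peak was a median 101 kb from an S3-only peak, and 26 S3-only peaks (2.37%) had one within 5 kb.

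The members nearest to the limit of the rule were chr3L:20462783-20464710, 65 bp from an S2 peak, chr3R:27812492-27812911 at 71 bp, chr2R:10453838-10455983 at 107 bp, chrX:12438928-12440893 at 116 bp and chr2R:11322730-11325646 at 141 bp. Just outside it lay chrX:11623190-11625217, which shares 14 bp with an S2 peak, chrX:8568792-8570835 with 55 bp, chr3L:3918854-3921705 with 74 bp, chr3R:4941294-4943185 with 97 bp and chr3R:11851463-11851882 with 161 bp. At the far end, chrX:15590045-15591862 lay 376 kb from the nearest S2 Su(Hw) peak, chr2L:14454222-14456185 lay 199 kb, chrX:1655999-1658055 lay 198 kb and chrX:15404677-15406739 lay 191 kb from one. A peak of the unplaced sequence U, chrU:10033258-10034850, was 882 kb from one in the coordinates of that sequence. That peak met Rrp6 and Rrp40 of S3 and Rrp6 of S2 cells, and the X peak at 376 kb met Rrp6 of S3 and Rrp40 of S2 cells, while the other 3 met no exosome peak.

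**Figure D3:**
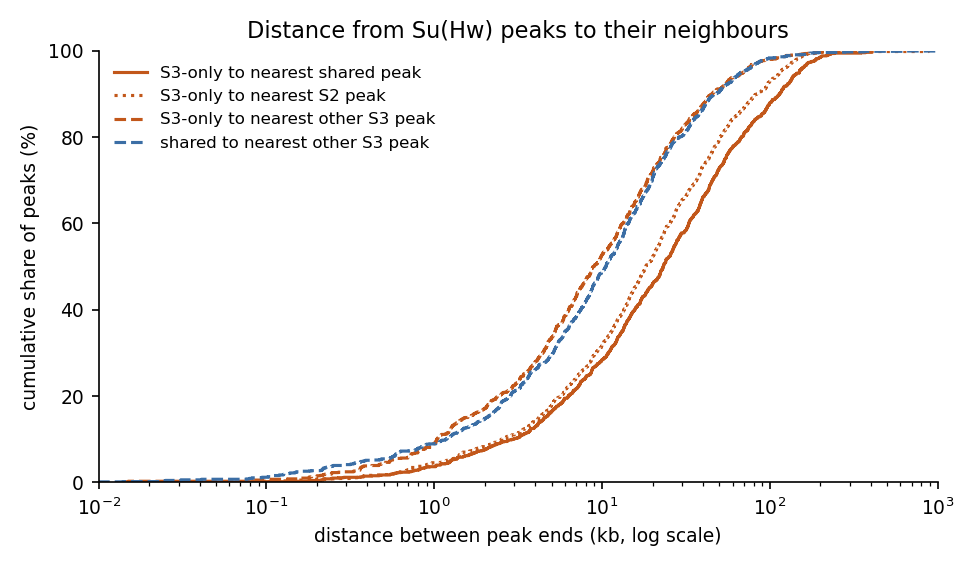
Cumulative share of Su(Hw) peaks (%) by distance between peak ends (kb, log scale). S3-only peaks reach 50% at 8.86 kb to any other S3 peak, at 18.2 kb to an S2 peak and at 23.2 kb to a shared peak, and shared peaks reach it at 10.6 kb to any other S3 peak.

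Neighbours of S3-only peaks were of their own kind in about every other case. The nearest S3 Su(Hw) peak was itself S3-only for 564 of 1094 S3-only peaks (51.6%, 48.5 to 54.6%), against 548 of 1501 shared peaks (36.5%, 34.1 to 39.0%), where 42.2% of the list is S3-only. Along the chromosomes the S3-only peaks formed 555 unbroken rows with no shared peak between their members, of which 305 held a single peak. The 250 longer rows held 792 peaks (72.2%). Rows of 7 or more numbered 21 and held 174 peaks (15.9%). Of the 1501 shared peaks, 212 stood singly and 304 lay in rows of 7 or more of their own kind, so long rows were not particular to S3-only peaks.

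The longest rows had 12 peaks each. One ran over chr2L:15942464-16230789, 288 kb, with widths between 1322 and 2275 bp and a median gap of 4.86 kb. In its span there was no Su(Hw) peak of S2 cells, no exosome peak of S3 cells and 1 Rrp6 peak of S2 cells. The row includes 6 close peaks from chr2L:16116578-16118852 to chr2L:16137779-16139751. The other ran over chr3L:16922785-17373810, 451 kb, with a median gap of 28.6 kb, 4 S2-only Su(Hw) peaks and 8 Rrp6 and 8 Rrp40 peaks of S3 cells in its span. Only its first member, chr3L:16922785-16924770, met an exosome peak, with Rrp6 and Rrp40 of S2 cells. The most compact long row held 10 peaks over chr3L:13549152-13626048, 76.9 kb, with a median width of 2751 bp, and includes the third widest S3-only peak.

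The share with an exosome peak was lowest in the long rows. Of the 174 S3-only peaks in rows of 7 or more, 5 met an exosome peak (2.87%, 0.939 to 6.58%), against 28 of 204 (13.7%) in rows of 4 to 6, 52 of 414 (12.6%) in rows of 2 or 3 and 41 of 305 (13.4%) standing singly. Of the shared peaks, 70 of 304 (23.0%, 18.4 to 28.2%) in rows of 7 or more met one, and 38 of 212 (17.9%) standing singly. The 21 long rows of S3-only peaks span 4.66 Mb in all. Of the 2056 bp windows in them 7.17% (6.14 to 8.31%) met an exosome peak, where 15.9% of all windows did. Adjacent windows can meet the same exosome peak, so this interval is too narrow. In 8 of the 21 spans there was no exosome peak of either line, and in 10 none of S3 cells. The grouping of rows by length was chosen after the values had been seen, and the difference was not tested.

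**Figure D4:**
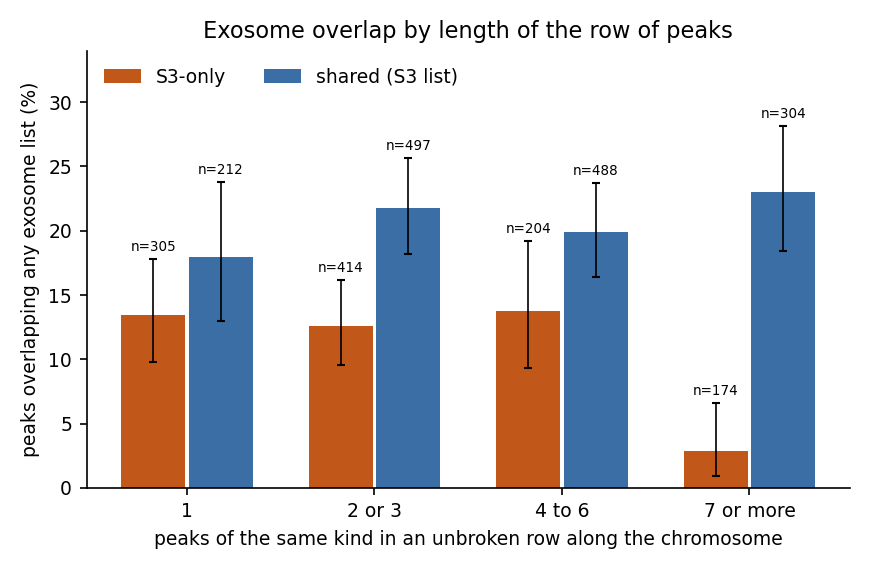
Share of Su(Hw) peaks (%) that overlap any of the 4 exosome lists, by the number of peaks of the same kind in an unbroken row along the chromosome, for S3-only and shared peaks; error bars are exact 95% binomial intervals. The S3-only share is 2.87% in rows of 7 or more and 12.6 to 13.7% in shorter ones, while the shared bars lie between 17.9 and 23.0%.

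By chromosome arm, the S3-only share of S3 Su(Hw) peaks was highest on 3R and lowest on X among the large arms. It was 45.8% on 3R (349 of 762, 42.2 to 49.4%), 42.4% on 3L (222 of 523, 38.2 to 46.8%), 42.1% on 2R (202 of 480, 37.6 to 46.6%), 40.6% on 2L (197 of 485, 36.2 to 45.1%) and 36.6% on X (123 of 336, 31.4 to 42.0%). Neighbours in that order had intervals that overlap widely, and those of 3R and X, at its ends, were separated by the bounds 42.2 and 42.0%. The difference was not tested. Chromosome 4 had 1 S3-only peak among 6, and the heterochromatic and unplaced sequences had 3 among 6.

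Counted by length, 3R carried 12.5 S3-only peaks per Mb of the span between its outermost peaks and X carried 5.49, with 8.58 on 2L, 9.56 on 2R and 9.07 on 3L. Among these arms, shared peaks followed the same order at the ends, 14.8 per Mb on 3R and 9.50 on X. Chromosome 4 carried 0.801 S3-only and 4.01 shared peaks per Mb. Of all S3-only peaks 31.8% were on 3R and 11.2% on X, against 27.5 and 14.2% of the shared peaks. An exosome peak of any list met 14.9% of the S3-only peaks on 2R, 11.7% on 3R, 11.3% on 3L, 9.64% on 2L and 8.13% on X, with intervals that overlap.

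**Figure D5:**
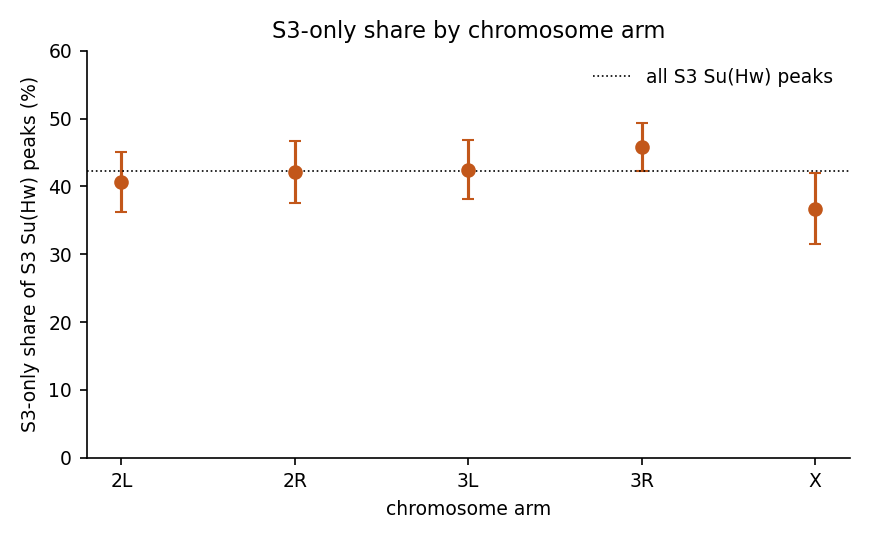
Share of S3 Su(Hw) peaks (%) that are S3-only on each major chromosome arm except chromosome 4, as points with exact 95% binomial intervals. The dotted line is the 42.2% of the whole list. 3R has 45.8% and X 36.6%.

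The RNA of the proteins concerned was at hand in control cells of both lines. In the authors' deposited tables of the Rrp6 comparison, the mean GFP dsRNA value of su(Hw) was 117 per 1000000 of the table's gene total in S3 and 105 in S2 poly(A) RNA. Its partners in the gypsy insulator, mod(mdg4) and Cp190, were at 680 and 224 per 1000000 in S3, against 1050 and 224 in S2 cells. Rrp6 was at 42.1 per 1000000 in S3 and 60.5 in S2, and Rrp40 at 42.6 in S3 and 126 in S2 cells, a ratio of 0.339. So su(Hw) and Cp190 RNA were of similar level in the 2 lines, and mod(mdg4), Rrp6 and Rrp40 RNA were lower in S3 cells by these means. The authors normalized the tables of each line separately and deposited means of 2 libraries with no spread, so no difference was tested. In bulk RNA, fewer cells expressing a gene and less RNA per cell cannot be told apart.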

How the data were processed

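Peak lists were used as deposited. They are dm3 intervals. The submitters' processing notes name Bowtie 0.12.7 and Picard for the series. No source used here names the peak caller, its threshold or the use of the input samples. Each Su(Hw) list has 1 sample, and the labels name each Rrp6 or Rrp40 list for 2 technical replicates. The signal values used are the authors' means of GFP libraries (replicates 1 and 3) after division by DESeq size factors, per the file headers; they were divided here by their total over 15065 genes. Gene IDs were matched to symbols for the 5 genes named.

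Overlaps (1 bp or more) and gaps between peak ends were computed with Python 3.11.15 and checked against bedtools 2.31.1 and on simulated intervals. Coordinates are printed 1-based. Intervals are exact Clopper-Pearson at 95%. Depth per ChIP sample is unknown. Regions named are the 3 widest and 3 narrowest (ties in coordinate order), the 5 farthest from and nearest to an S2 peak, the 5 with the smallest overlap, those over all 4 exosome lists (up to 10) and the longest rows. Other rows, width classes, the 420 bp class and tiled windows were added after values were seen. Members and lists were chosen with earlier results of these data known. Planned counts of a sequence motif and of gene context were not made, as no dm3 genome or annotation was used here.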

Additional observations from a re-analysis of the deposited data

How the results depend on the processing

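The number of S3-only peaks stayed within 1.5 times of 1097 under all settings tried except a limit to S3 peaks at least as wide as the list's median, which left 262. That limit also gave the lowest exosome shares: 2.29 and 3.05% for Rrp6 and Rrp40 of S3 cells, 2.67 and 3.82% for those of S2 cells and 4.20% for any list. In the same order, the shares were 5.47, 5.38, 5.01, 6.56 and 8.93% where 50% of the peak had to be covered, and 5.38, 5.47, 5.29, 6.56 and 9.12% where the exosome peak had to lie over the midpoint. Without the 420 bp peaks, a setting chosen after seeing the data, they were 5.31, 5.41, 5.41, 6.83 and 8.82%. With exosome peaks within 1000 bp counted, Rrp6 reached 8.75% in S3 and 9.21% in S2 cells and any list 13.9%. With every Su(Hw) peak set to 0.5 kb around its midpoint, the median distance to a shared peak was 27672 bp. In each of 11 settings the share over any exosome list was lower for S3-only than for shared peaks. That comparison took the 4 lists together. Over the lists of S3 cells alone, the main shares were 8.48% (6.90 to 10.3%) for S3-only and 10.6% (9.08 to 12.3%) for shared peaks, with intervals that overlap. Of 104 alternative values 79 stayed within the main value's counting interval, or 1.5 times for the count. Some of these could not move, such as the arm shares when only major arms were kept. Gene levels from other tables rested on the same control groups. Every exosome share left its interval under the 50% coverage, midpoint and width limits and without the 420 bp peaks. No paired analysis was possible because each Su(Hw) list is 1 sample and no result comes from a test. Depth limits every absence: an unlisted site is not an unbound one.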
